A study of Mus musculus with 2 samples.

Results

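In mouse spleen, 99 protein-coding genes had a CpG-rich promoter but no DNase I hypersensitive peak at it. They were chosen by sequence and by the deposited peak lists: the 500 bp either side of the most upstream transcription start site (TSS) had a CpG observed/expected ratio of at least 0.75, and no peak of the longer list of either library lay within 500 bp of any annotated TSS of the gene. Of 21938 protein-coding genes, 6038 had a CpG-rich promoter, and the 99 were 1.64% of those (exact binomial 95% interval 1.33% to 1.99%). The CpG ratio is the number of CpG dinucleotides set against the number that the C and G content of the window would give by chance. Since absence of a peak defined the genes, that absence is not a finding, and what follows describes which genes they were, where they lay and what else the files held there.

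The data were DNase-seq of spleen tissue from male B6CASTF1/J mice aged 10 days, a first-generation cross of C57BL/6J and CAST/EiJ, with no treatment named in the labels. In this assay the enzyme DNase I cleaves accessible chromatin, and sequencing locates the cleavage points. There was 1 group of 2 libraries, biological replicates 1 and 2, which share a donor identifier in the labels, so nothing was compared between conditions and no test was made. Replicate 1 had 130476 peaks in the longer list and replicate 2 had 95847. Read totals were not analysed here and the depth is unknown, so a missing peak means no call at this depth. Of 22 marker genes of red cells, B cells, T cells, macrophages and spleen stroma, 21 had a promoter peak in both libraries, and Cd3e, a T cell receptor subunit, did not. The spleen is a mixture, and a promoter open in few cells cannot be told apart from one that is weakly open in many.

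CpG islands are stretches of DNA that keep many CpG dinucleotides because they are usually free of methylation. They cover the promoters of most housekeeping genes and of many developmental regulators, and in most tissues their DNA is open even where the gene is little transcribed. Polycomb complexes hold islands of developmental regulators in a repressed state in cells that do not use them. Some germ cell genes have CpG-rich promoters that become methylated in the body's other cells. Neither the Polycomb mark nor methylation was measured in these libraries.

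The sequences of 8 of the promoters show how CpG-rich DNA without a peak looks. Each line gives the 120 bases upstream of the most upstream TSS on GRCm38 (mm10), read 5′ to 3′ on the gene's strand, with every CpG in capitals and no annotated exon inside. Barhl2 had the highest CpG ratio of the 99 genes, Irx1 and Irx2 lay farthest from any peak, Six2, Wnt4 and Ihh are regulators and signals of organ formation, Tbx21 was the only gene of a list of blood genes, and Slc25a31 is a germ cell gene near the lower CpG limit.
Barhl2 (chr5:106458167-106458286, minus strand): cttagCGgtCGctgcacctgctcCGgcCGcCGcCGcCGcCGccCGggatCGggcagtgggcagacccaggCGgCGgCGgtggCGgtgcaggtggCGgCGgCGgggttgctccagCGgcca
Irx1 (chr13:71963724-71963843, minus strand): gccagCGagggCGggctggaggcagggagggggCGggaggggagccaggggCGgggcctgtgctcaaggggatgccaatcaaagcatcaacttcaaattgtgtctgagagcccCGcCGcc
Irx2 (chr13:72628700-72628819, plus strand): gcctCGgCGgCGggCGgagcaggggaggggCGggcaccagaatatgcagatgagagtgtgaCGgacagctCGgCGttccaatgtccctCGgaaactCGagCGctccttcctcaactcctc
Six2 (chr17:85688275-85688394, minus strand): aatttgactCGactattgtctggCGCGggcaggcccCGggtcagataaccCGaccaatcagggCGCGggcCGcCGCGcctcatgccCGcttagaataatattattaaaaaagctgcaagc
Wnt4 (chr4:137277369-137277488, plus strand): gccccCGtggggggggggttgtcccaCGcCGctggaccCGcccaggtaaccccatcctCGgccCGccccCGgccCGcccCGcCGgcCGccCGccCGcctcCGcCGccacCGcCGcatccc
Ihh (chr1:74951673-74951792, minus strand): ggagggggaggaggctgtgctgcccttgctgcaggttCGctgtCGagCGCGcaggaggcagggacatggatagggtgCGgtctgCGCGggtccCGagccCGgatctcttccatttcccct
Tbx21 (chr11:97115332-97115451, minus strand): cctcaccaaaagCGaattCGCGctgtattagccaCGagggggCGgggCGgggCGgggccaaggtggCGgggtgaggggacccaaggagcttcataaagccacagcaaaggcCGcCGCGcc
Slc25a31 (chr3:40708735-40708854, plus strand): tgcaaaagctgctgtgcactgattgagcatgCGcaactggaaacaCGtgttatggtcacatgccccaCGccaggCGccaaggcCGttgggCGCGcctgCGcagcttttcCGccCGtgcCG
These 120 bases held 18 CpGs at Barhl2, 17 at Wnt4 and 11 at Irx2, Six2, Tbx21 and Slc25a31, against 9 at Ihh and 6 at Irx1. GC content ran from 55.8% at Six2 to 85% at Wnt4. The stretches without a peak therefore ranged from moderately to very GC-rich. For comparison, the same stretch is shown for a relative of Six2 and one of Wnt4 whose CpG-rich promoters had a peak in both libraries.
Six5 (chr7:19094474-19094593, plus strand): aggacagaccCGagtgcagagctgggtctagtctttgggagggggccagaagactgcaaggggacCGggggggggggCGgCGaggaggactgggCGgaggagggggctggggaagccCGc
Wnt5b (chr6:119544348-119544467, minus strand): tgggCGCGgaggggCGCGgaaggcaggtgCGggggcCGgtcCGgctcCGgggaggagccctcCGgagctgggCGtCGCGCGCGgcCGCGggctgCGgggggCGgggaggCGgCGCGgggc
Six5 held 6 CpGs here and Wnt5b held 21. The peak signal at Six5 was 6.12 in replicate 1 and 2.50 in replicate 2, and at Wnt5b it was 1.31 and 0.549. The signal is the authors' density, scaled to depth by a constant that no source used here gives, and is read within a library.

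Among CpG-rich genes, a peak was the rule. A peak lay at the promoter in both libraries for 5650 genes (93.6%), in replicate 1 only for 280 (4.64%) and in replicate 2 only for 9. The set would thus hold 379 genes without replicate 1 and 108 without replicate 2. Peaks called in replicate 1 only were weak, with a median signal of 0.398 (range 0.173 to 3.65), against a median of 12.8 in replicate 1 where both libraries had a peak. Over all protein-coding genes 31.8% had no peak, and over the 15900 genes below the CpG limit 43.2% had none. The share without a peak was 2.17% (34 of 1566 genes) at ratios from 0.75 to 0.8 and 0.626% (6 of 959) at ratios of 0.95 and above. Just below the limit, from 0.65 to 0.75, it was 3.78% (109 of 2884), and from 0.55 to 0.65 it was 9.10% (190 of 2087). The share thus changed by degrees across the limit of 0.75.

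Most windows of the 99 genes were rich in CpG by number as well as by ratio. The highest ratios were those of Barhl2 (1.07), Nudt10 (1.04), BC107364 (1.00), Wnt9a (0.997) and Cabp7, a calcium-binding protein (0.982). The median ratio was 0.825, with 88 CpGs and a GC content of 65.4%, against 0.851, 83 CpGs and 62.9% in the 5650 promoters with a peak in both libraries. The CpG-rich stretch that covers the promoter, built from 200-base windows with a GC content of at least 50% and a ratio of at least 0.6, had a median length of 1257 bp, against 1191 bp. In 11 of the 99 genes (11.1%) it reached 2000 bp, against 6.87% of the promoters with a peak in both libraries and 16.6% (48 of 289) of those with a peak in 1 library. The promoters with a peak in 1 library also had a median stretch of 1344 bp, 94 CpGs and a GC content of 67.3%, all above the medians of the 99. By contrast, genes below the CpG limit without a peak had a median of 8 CpGs in the window and a median stretch of 0 bp. Only 4 of the 99 windows had a GC content below 50%, those of Gm21738, Zfhx4, Eif3j2 and Tex11, and Gm21738 alone had no such stretch.

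The genes had few annotated TSSs, which bears on the choice, because every TSS of a gene had to be free of peaks. The median was 2 TSSs, against 5 in the promoters with a peak in both libraries. It was 3 in CpG-rich promoters with a peak in 1 library and 2 in genes below the CpG limit without a peak. Of 730 CpG-rich genes with 1 TSS, 47 had no peak (6.44%), against 20 of 704 (2.84%) with 2, 24 of 2170 (1.11%) with 3 to 5, and 8 of 2434 (0.329%) with 6 or more. How much of this comes from the rule itself was not tested.

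Developmental transcription factors formed the largest group, and homeobox genes led it. Homeobox proteins bind DNA through a shared domain and set body position and organ identity in the embryo. Of 68 CpG-rich homeobox genes, 19 had no peak (27.9%, interval 17.7% to 40.1%), against 80 of the 5970 other CpG-rich genes (1.34%, interval 1.06% to 1.67%). A further 24 of the 68 had a peak in 1 library, and 25 had one in both. Where both libraries had a peak, the homeobox promoters had a median signal of 2.02 in replicate 1 and 0.821 in replicate 2, against 12.8 and 5.11 for all CpG-rich promoters with a peak in both. Homeobox genes also had few TSSs, with a median of 2. Among CpG-rich genes with 1 TSS only, 9 of 27 homeobox genes had no peak (33.3%, interval 16.5% to 54.0%), against 38 of 703 others (5.41%, interval 3.85% to 7.34%).

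**Figure D1:**
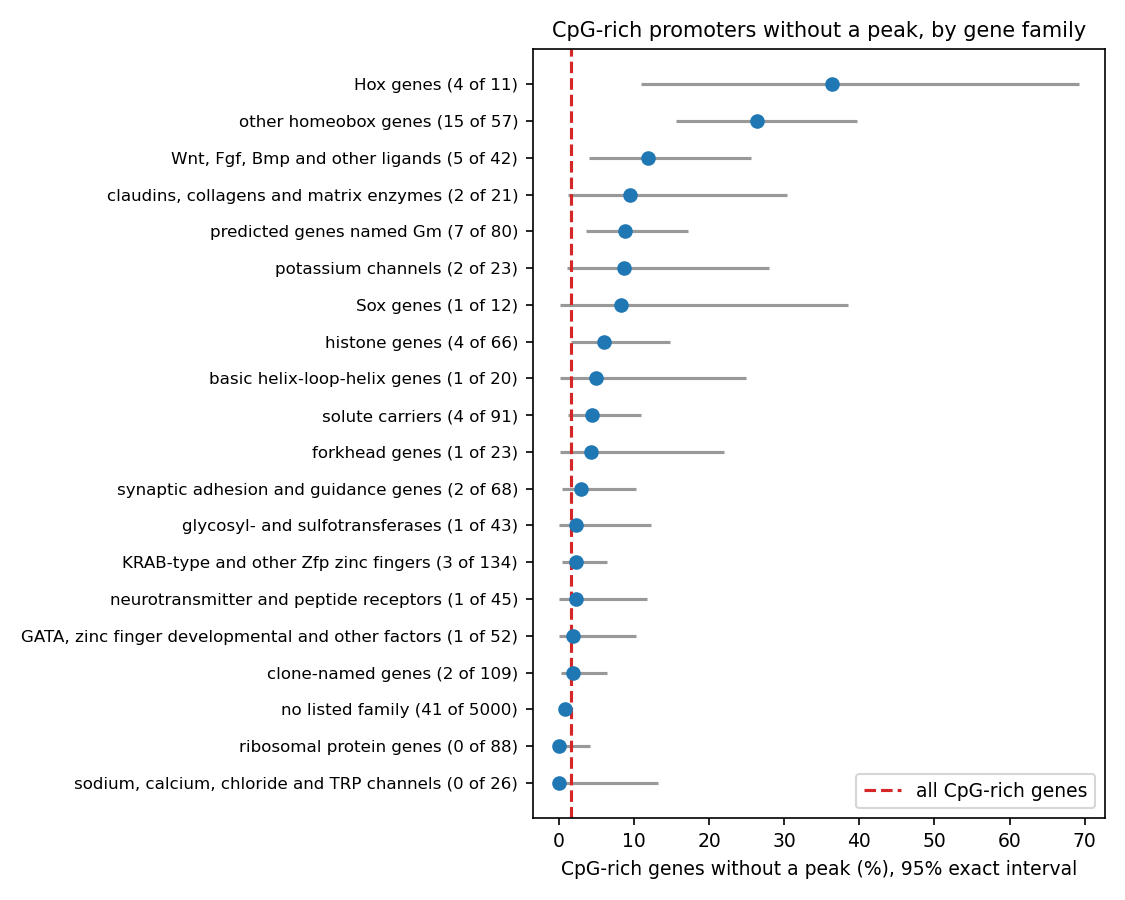
Share of CpG-rich genes without a peak (x axis, percent) for each gene family with at least 10 CpG-rich genes (y axis, with the number without a peak and the number of CpG-rich genes). Points are shares, bars exact binomial 95% intervals, and the dashed line is the share over all CpG-rich genes, 1.64%; Hox genes (36.4%) and other homeobox genes (26.3%) stand at the top.

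Of the 39 Hox genes, which pattern the body axis, 11 were CpG-rich by the rule, and 4 of these had no peak: Hoxb9, Hoxc12, Hoxd9 and Hoxd1. Another 5 (Hoxa5, Hoxa13, Hoxb7, Hoxc11 and Hoxd13) had a peak in replicate 1 only, with signals from 0.319 to 0.848. The remaining Hoxa4 and Hoxb5 had peaks in both libraries, at 5.63 and 1.50 for Hoxa4 and at 1.90 and 0.754 for Hoxb5. The closest peak to Hoxd1 began 504 bp from its TSS in replicate 1 and 12969 bp away in replicate 2. Hoxd9 had its closest peak 4594 bp away in both libraries, and Hoxb9 had its closest 7378 bp and 7338 bp away. Hoxc12, a gene of the posterior body, was the most remote, at 14557 bp and 29744 bp. The Hox genes without a peak therefore still lay in clusters with peaks at other members. In the Hoxd cluster these promoter peaks were in replicate 1 only, at Hoxd8 (0.630), Hoxd11 (0.360), Hoxd12 (0.285) and Hoxd13 (0.319).

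The other 15 homeobox genes were Barx1, Irx1, Irx2, Irx4, Otx2, Six2, Cdx1, Lmx1b, Zfhx4, Pou3f2, Mnx1, Nkx1-1, Hmx1, Barhl2 and Uncx. Several are best known from organs other than the spleen: Otx2 in forebrain and eye, Six2 in kidney progenitors, and Cdx1 in the gut. Mnx1 is known from motor neurons and pancreas, Lmx1b from limbs and kidney, and Barhl2 from retina and brain. The windows of all 15 were unique in the genome or nearly so, with at least 98.1% of 31-base words occurring once. Without replicate 1 there would be 34 such genes, and without replicate 2 the same number, 15. CpG-rich relatives of the same subfamily often had weak peaks. Otx1 had signals of 0.491 and 0.226, Irx5 had 0.529 and 0.318, and Barx2 had 0.503 in replicate 1 with no peak in replicate 2. Six5, at 6.12 and 2.50, had the strongest of these. Relatives below the CpG limit ranged from no peak, as at Six3, Cdx2, Cdx4 and Pou3f3, to signals of 4.10 and 1.42 at Barhl1.

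A further 6 developmental regulators had no peak. Sox3 acts in the early nervous system and pituitary, Foxl1 in the mesenchyme of the gut, Zic2 in the dorsal neural tube, Bhlhe23 in the retina, Skor1 in the dorsal spinal cord, and Tbx21 in lymphocytes. Tbx21 encodes T-bet, which directs type 1 helper T cells and natural killer cells, and it was the 1 gene without a peak among 13 CpG-rich genes of a list of 123 blood genes. Its CpG ratio was 0.761, its window was unique, and its closest peak was 11890 bp away in replicate 1 and 11695 bp away in replicate 2. Of the other 12 blood genes with CpG-rich promoters, 9 had a peak in both libraries and 3 in 1. Over the families of developmental transcription factors that were listed, 24 of 180 CpG-rich genes had no peak (13.3%, interval 8.73% to 19.2%). Outside the homeobox genes these families each gave 1 gene at most. They gave 1 of 12 Sox genes, 1 of 23 forkhead genes, 1 of 5 T-box genes and 1 of 20 basic helix-loop-helix genes. Of CpG-rich GATA, developmental zinc finger and other factors, 1 of 52 had no peak (1.92%). Skor1 was in none of those families.

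Secreted signals and receptor kinases gave 10 genes. Of 42 CpG-rich genes for Wnt, Fgf, Bmp and other ligands, 5 had no peak (11.9%, interval 3.98% to 25.6%) and 14 had a peak in 1 library. The 5 were Ihh, which signals in growing cartilage, Wnt9a, Wnt4, Bmp8b, and Gdnf, a survival factor for neurons and a signal in kidney formation. Wnt9a had a CpG ratio of 0.997 and its closest peaks were 991 bp and 951 bp away. Wnt4 had a ratio of 0.859 and its closest peak was 10452 bp away in both libraries. Among their relatives, Wnt5b, Wnt7a and Wnt11 had peaks in both libraries, with replicate 1 signals of 1.31, 1.66 and 0.941. Draxin, an axon guidance protein, Igfbpl1, Fam19a5, and the receptor kinases Epha8 and Flt4 made up the rest of the 10. Flt4 is the receptor of lymphatic vessel growth, and 52.2% of the words of its window occurred once in the genome.

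Channels, transporters and transmitter receptors gave 10 genes. They included Kcnd2 and Kcnc4, potassium channels of neurons, Slc18a3, which loads acetylcholine into vesicles, Slc6a11, a GABA transporter, Htr6, a serotonin receptor, Slc5a5, the iodide transporter of the thyroid, Aqp5, a water channel of glands, and Abcc8, a subunit of the potassium channel of insulin-secreting cells. By family, 2 of 23 CpG-rich potassium channel genes and 4 of 91 solute carriers had no peak, and 0 of 26 genes for sodium, calcium, chloride and TRP channels (interval up to 13.2%). A list of 60 neuron genes gave 0 of 17 CpG-rich genes without a peak, although 10 of the 17 had a peak in 1 library only. Genes used by neurons were therefore present in the set but were not a general rule in it. Matrix, junction and glycan genes gave 8, among them Bcan, Col12a1, P3h3 and Mgat3.

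Germ cell genes gave 5: Tcfl5, Zfp541, Hsf5, Slc25a31 and Tex11, which act in the formation of sperm. Slc25a31 encodes an ADP/ATP carrier of the testis and Tex11 a protein of meiotic recombination on the X chromosome. Of 12 CpG-rich genes on a list of 95 germline genes, 2 had no peak, Slc25a31 and Tex11. The closest peak to Slc25a31 was 14135 bp away in both libraries, and the closest to Tex11 was 7935 bp away in replicate 1 and 56934 bp away in replicate 2. Both lay at the lower edge of the CpG ratio, at 0.753 and 0.751. Ribosomal protein genes, which are used in every cell, were not among the 99: 0 of 88 CpG-rich genes had no peak (interval up to 4.11%). Of CpG-rich genes in no listed family the share was low as well, 41 of 5000 (0.820%). The remaining 37 genes in the grouping by role had another role or none that was assigned.

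Near-identical copies made up a separate part of the set. The uniqueness of a window was taken as the share of its 31-base words that occur once in the GRCm38 sequence, since reads from a repeated stretch cannot be placed with certainty. No source used here says how the authors treated such reads. In 18 of the 99 genes (18.2%, interval 11.1% to 27.2%) under 50% of the words occurred once, against 43 of 5650 promoters with a peak in both libraries (0.761%). Of the 16 CpG-rich windows in which no word occurred once, 13 had no peak in either library, 2 had a peak in 1 library and 1 had a peak in both. Of the 5629 windows with at least 90% of words occurring once, 78 had no peak (1.39%). Of the 343 windows with 50% to 90% the share was lower, 3 (0.875%), those of Flt4, Gm21738 and Eif3j2, and of the 66 windows under 50% it was 18 (27.3%). The part that repeated sequence has in the missing peaks was not tested. All 25 developmental regulators were among the 78.

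**Figure D2:**
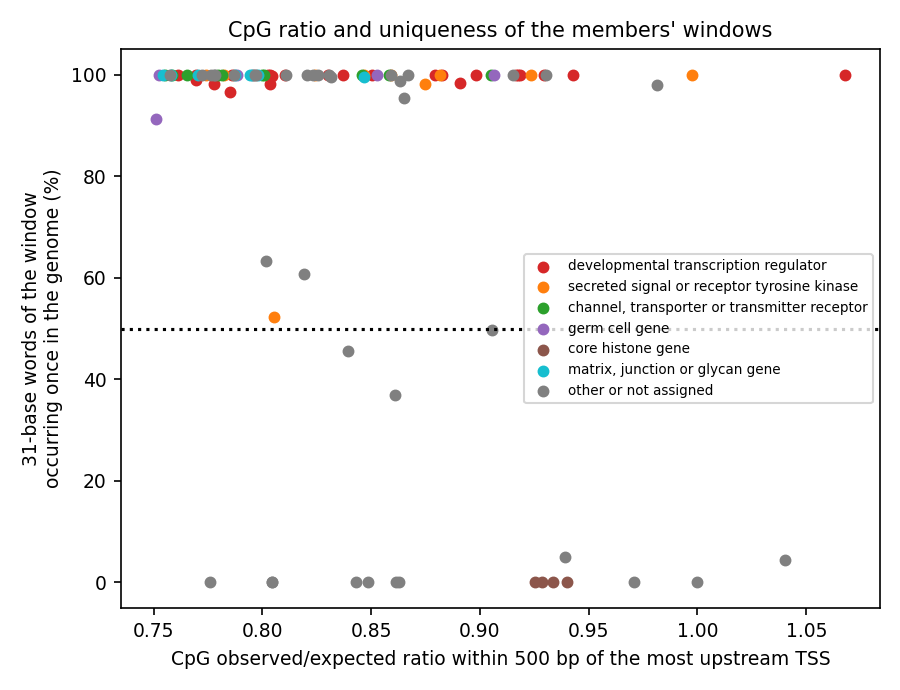
CpG observed/expected ratio of each of the 99 windows (x axis) and the share of its 31-base words that occur once in the genome (y axis, percent), coloured by role group. The dotted line marks 50%; 18 windows lie below it, with the core histone genes all at 0, while the developmental regulators lie above 96%.

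The 13 genes without a word that occurs once were Fam177a, 1700047I17Rik2, Srp54b, Entpd4, Entpd4b, Hist1h2bq, Hist1h2ao, Hist1h2ap, Hist1h2br, Gm3435, BC107364, Zxdb and Gm47283. Several were copies of each other. The window of Fam177a shared 100% of its words with that of 1700047I17Rik2, and Entpd4 shared 100% with Entpd4b. The upstream sequences of the first pair show it, since the last 61 bases shown for Fam177a are the first 61 shown for 1700047I17Rik2.
Fam177a (chr12:55124349-55124468, plus strand): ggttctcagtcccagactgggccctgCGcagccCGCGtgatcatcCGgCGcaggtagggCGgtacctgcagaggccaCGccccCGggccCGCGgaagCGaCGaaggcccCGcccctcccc
1700047I17Rik2 (chr12:55199472-55199591, plus strand): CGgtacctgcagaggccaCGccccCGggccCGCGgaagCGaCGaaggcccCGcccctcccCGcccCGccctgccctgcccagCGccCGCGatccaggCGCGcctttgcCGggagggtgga
Both were on chromosome 12 and 75123 bp apart, with Srp54b between them, whose window shared 100% of its words with Srp54c and 53.7% with Srp54a. Srp54a, Srp54b and Srp54c encode copies of a subunit of the signal recognition particle, which guides new proteins to the membrane. Srp54a, with 46.3% of words occurring once, had signals of 18.4 and 7.19. Srp54c had a peak of 0.533 in replicate 1 only, and Srp54b had none. Within this family the copy with the most unique words had the strongest signal and the other 2 copies had no peak or a weak one.

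Other copies lay on the sex chromosomes. Gm47283 on the Y chromosome shared 100% of its words with Gm21887 on the X, which had the highest signals among repeated windows with peaks, 44.4 and 12.2. Whether the windows of Gm47283 and Gm21887 are separate copies or the same shared sequence placed on both chromosomes was not examined. Nudt10 and Nudt11, 125562 bp apart on the X, encode enzymes that act on inositol pyrophosphates. Their windows shared most of their words (95.7% of those of Nudt10, 95.1% of those of Nudt11), and neither had a peak, while Nudt3 and Nudt4, with unique windows, had signals of 8.24 and 14.0 in replicate 1. Bex2 on the X shared 54.0% of its words with Bex3, which had signals of 0.806 and 0.415. On an autosome, Eif3j2, with 63.2% of its words occurring once, had no peak, and its relative Eif3j1 had signals of 10.4 and 4.66.

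Of 28 H2A and H2B genes of the Hist1 cluster, which supply histones during DNA replication, 23 had a peak in both libraries and 4 belonged to the set. The 4 were 2 divergent pairs, Hist1h2bq with Hist1h2ao and Hist1h2ap with Hist1h2br, with TSSs 268 bp and 236 bp apart, so that the windows in each pair overlapped. The windows of each pair shared 100% of their words with the other pair. They also shared up to 52.2% of their words with open pairs, such as Hist1h2ah with Hist1h2bk, whose signals were 4.16 and 4.72. The closest peaks to the 4 genes were at the promoters of Hist1h4m and Hist1h4n, from 1236 bp to 1504 bp away in both libraries.

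Gm21738 passed the CpG limit at a low GC content: with a GC content of 34.9%, 23 CpGs were enough for a ratio of 0.819. The 120 bases upstream of its TSS, with 4 CpGs, were unlike the other promoters shown.
Gm21738 (chr14:19418931-19419050, minus strand): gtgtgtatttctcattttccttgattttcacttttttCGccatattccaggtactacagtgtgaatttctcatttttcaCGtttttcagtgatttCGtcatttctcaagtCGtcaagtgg
Its window had 60.7% of words occurring once. Of its words, 24.2% also lay in a stretch of chromosome 9 with peak signals of 94.2 and 72.5. Another stretch of chromosome 14, without a peak, held 16.4% of them. What part these repeated words have in the missing peak was not tested. Gm21738 is 1 of 7 predicted genes named Gm in the set, of 80 that were CpG-rich (8.75%). Only 2 of the 7 had windows with at least 90% of words occurring once.

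By chromosome, the set was spread over 19 of the 21 chromosomes. Chromosome 4 had the most genes, 12 of 415 CpG-rich genes (2.89%, interval 1.50% to 5.00%). Chromosomes 13 (8 of 273, 2.93%) and 14 (6 of 203, 2.96%) had like shares, but 4 of the 8 on chromosome 13 were the histone genes. The X chromosome had 7 of 107 (6.54%, interval 2.67% to 13.0%), against 91 of 5926 on the autosomes (1.54%, interval 1.24% to 1.88%). Of those 7, the genes Nudt10, Nudt11, Zxdb and Bex2 had mostly repeated windows, and Sox3, Tex11 and Tmem28 did not. Among unique windows, 3 of 93 on the X had no peak, against 75 of 5533 on the autosomes. The mice were male, so the X and the autosomes also differ in copy number. The part of copy number and of repeated sequence in the X share was not tested. The Y chromosome had 1 of 5, Gm47283. Chromosomes 16 (0 of 194, interval up to 1.88%) and 19 (0 of 205, interval up to 1.78%) had none, and chromosome 10 had 1 of 309 (0.324%), Shc2.

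**Figure D3:**
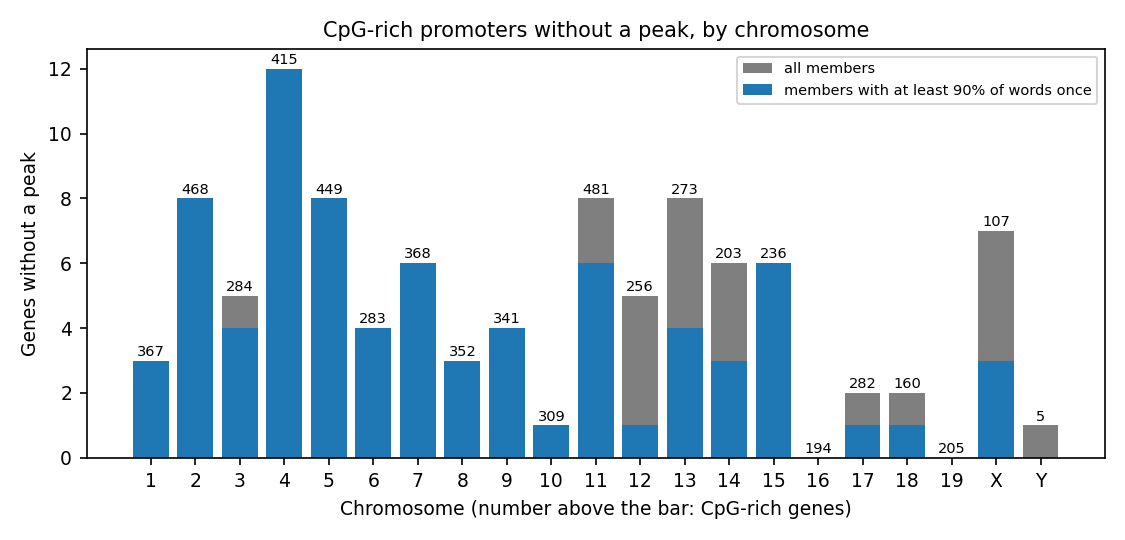
Number of CpG-rich genes without a peak (y axis) on each chromosome (x axis), with the number of CpG-rich genes above each bar. Grey bars count all 99 genes and the blue part those with at least 90% of words occurring once; on the X, 7 fall to 3, while the 12 on chromosome 4 are unchanged.

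Some of the genes were next to each other along the chromosomes, and most were not. Of the 99, 10 (10.1%) were next to another gene of the set in the order of protein-coding genes, in 4 runs, and of the 78 with unique windows 3 were (3.85%). At a CpG ratio of at least 0.65 the share was 20.7%. Of all 6038 CpG-rich genes, a far larger set, 66.6% were next to another CpG-rich gene. These shares depend on how many genes a set holds, and whether they differ from those of other sets of the same size was not tested. The 3 runs of repeated sequence were Fam177a with Srp54b and 1700047I17Rik2 and both histone pairs. The only run of unique windows was Irx1, Irx2 and Irx4 on chromosome 13, spread over 1296756 bp with no other protein-coding gene in between. Irx genes pattern heart, limb and neural tissue. The closest peak to Irx1 was 157984 bp from its TSS in replicate 1 and 327058 bp in replicate 2, and for Irx2 it was 228741 bp and 189913 bp. Irx4 differed, with a peak 2917 bp away in replicate 1 and 49820 bp away in replicate 2. The second Irx cluster, on chromosome 8, had peaks at all 3 genes: Irx5 in both libraries, and Irx3 and Irx6 in replicate 1 only, at 0.371 and 0.244. Within 1 Mb of another gene of the set lay 27 of the 99 (27.3%), and 14 of the 78 with unique windows. For the larger set of 6038 CpG-rich genes this share was 97.3%. Besides the runs and copies, such neighbours included Hoxd9 and Hoxd1, 65253 bp apart, Tcfl5 and Bhlhe23, 134192 bp apart, and Epha8 and Wnt4, 320673 bp apart.

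The distance to the closest peak ranged from 503 bp to 228741 bp in replicate 1. Measured from any TSS, the median was 4830 bp in replicate 1 and 6974 bp in replicate 2. From the most upstream TSS, 26 of the 99 had a peak of either library within 2000 bp and 12 had none within 50 kb. The 5 farthest from the most upstream TSS were Irx2 (232518 bp and 189913 bp), Irx1, Zfp804a (150177 bp and 306185 bp), Entpd4b (141757 bp and 141737 bp) and Otx2 (91477 bp and 93133 bp). Zfp804a, a zinc finger gene of the brain, had a peak 24044 bp from another of its TSSs in replicate 1. The windows of the Irx genes, Otx2 and Zfp804a were unique, and that of Entpd4b was not. Of the 99 closest peaks, 30 lay inside the gene, 10 at the promoter of another gene and 59 elsewhere, and 63 were called in both libraries. The median number of peaks in the 50 kb beyond the window on either side was 6 in replicate 1 and 4 in replicate 2. It was 9 and 8 around CpG-rich promoters with a peak in both libraries, and 5 and 3 around those with a peak in 1 library, so the lower number was not particular to the 99.

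The medians of this distance ranged widely between role groups. The median in replicate 1 was 1044.5 bp for the 8 matrix, junction and glycan genes, 2922.5 bp for the 10 channels and transporters, 3271.5 bp for the 10 signals and receptor kinases, 5946 bp for the 25 developmental regulators and 12797 bp for the 5 germ cell genes. In replicate 2 the developmental regulators had a median of 11740 bp. Ranges were wide in each group, from 504 bp to 228741 bp in replicate 1 for the developmental regulators, and overlapped between groups. No test of this difference was made, because the groups were formed with the genes known.

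**Figure D4:**
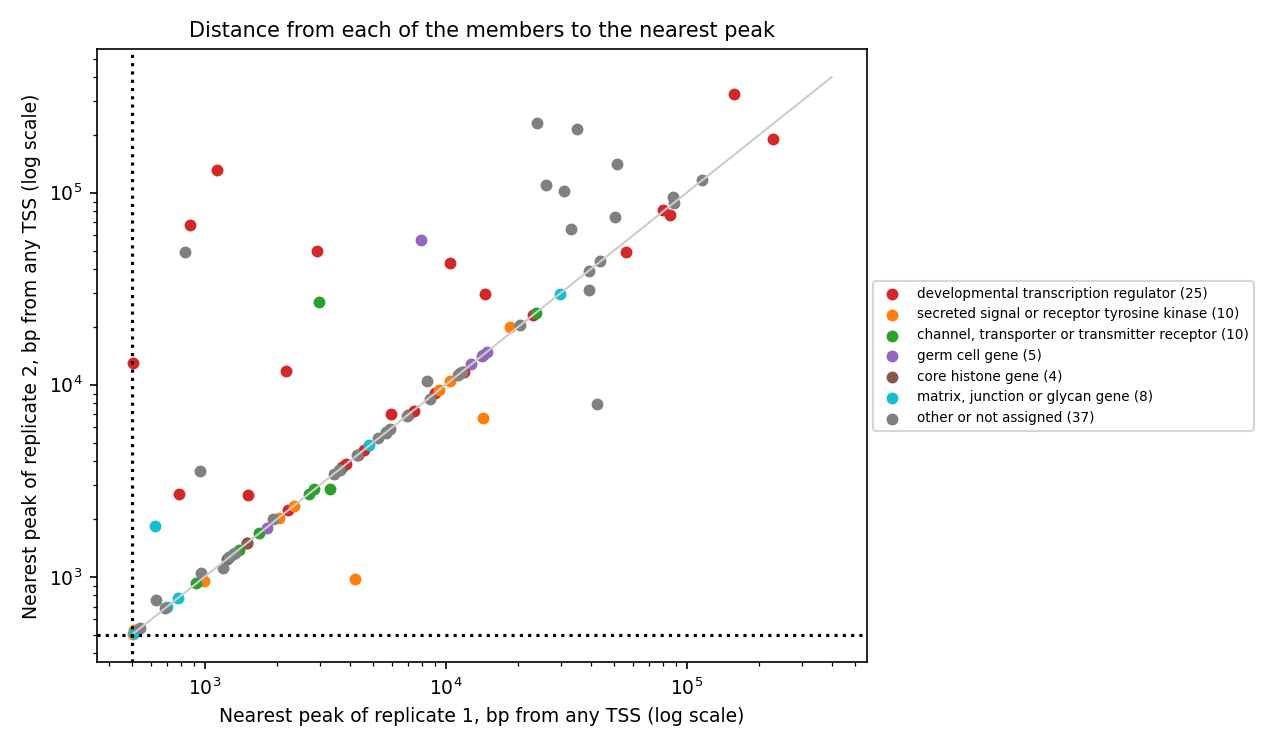
Distance in bp from any TSS of each of the 99 genes to the closest peak of replicate 1 (x axis, log scale) and of replicate 2 (y axis, log scale), coloured by role group; dotted lines mark the 500 bp limit and the grey line equal distances. Most points lie on the grey line, and most of those off it lie above it, where replicate 2 had no peak at the closest site of replicate 1; Irx1 and Irx2 are at the top right.

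Some genes of the set only just met its limits. Igfbpl1 had its closest peak 503 bp from a TSS, Hoxd1 504 bp and P3h3 509 bp. Of CpG-rich genes left out, Mterf1b had a peak that reached to 481 bp, Srp54c to 473 bp and Hs3st4 to 472 bp, with signals of 0.285, 0.533 and 0.236. On the side of the CpG ratio, Tex11 (0.751), Slc25a31 (0.753) and Col12a1 (0.754) were just inside, and Gm10715 (0.749), Pcdha6 (0.749) and Wnt3a (0.748) had no peak and were just outside. Genes on either side of these limits were thus alike in the values that decided them.

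The false discovery rates of the cut rate, which the authors list only for stretches below 0.05, showed a trace of cutting in some windows. A stretch below 0.05 lay in the window of 13 of the 99 genes in replicate 1 (13.1%, interval 7.18% to 21.4%) and of 3 in replicate 2, and of 2 in both, P3h3 and Gdnf. These values come from the same libraries as the peaks, so they are a description and no independent evidence. Of CpG-poor genes without a peak, 1.98% had such a stretch in replicate 1, and of CpG-rich promoters with a peak in both libraries, 99.8%. P3h3, a collagen-modifying enzyme, had the lowest value, 5.56e-05 in replicate 1 and 0.0289 in replicate 2, with its closest peak 509 bp away. Draxin followed, at 0.0215 in replicate 2 only, then Abcc8 at 0.0231, Gm12184 at 0.0254 and Rasd2 at 0.0364 in replicate 1. Gdnf had 0.0402 in replicate 1 and 0.0419 in replicate 2. At thresholds of 0.01 and of 0.001 P3h3 alone remained, in replicate 1. The stretches were short, with a median of 21 bases in replicate 1. No window of the 99 held a footprint in either library (0 of 99, interval up to 3.66%), while 99.6% of promoters with a peak in both libraries held one in replicate 1. Footprints were called from the same libraries and are no independent evidence either.

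The windows were searched for 12 short sequences that transcription factors bind, as exact letters on both strands of the 1001-base window. The choice used these bases only through their CpG ratio. None of the 12 contains another, though matches may overlap at their ends. The ETS sequence CCGGAAG was in 9 of the 99 windows (9.09%, interval 4.24% to 16.6%), in 34.2% of the 5650 promoters with a peak in both libraries and in 19.2% of all 21938 windows. GCGCATGCG, bound by NRF1, was in 0 of the 99 (interval up to 3.66%), in 6.73% of those with peaks and in 3.30% of all windows. AAGATGGCG, bound by YY1, was in 1 of the 99 (1.01%, interval 0.0256% to 5.50%), in 7.91% of those with peaks and in 3.56% of all. For these 3 sequences the share with peaks lay above the interval of the 99. TCTCGCGAG, bound by BANP, was in 0 of the 99, in 3.49% of those with peaks, which is within the interval, and in 1.26% of all. The GC box GGGGCGGGG of SP and KLF factors was in 41.4% of the 99, in 41.3% of those with peaks and in 22.9% of all. For the E-box CACGTG (25.3%, 22.9% and 17.1%) and the TATA box TATAAA (12.1%, 17.3% and 32.3%) the share with peaks was within the interval too. So it was for the cyclic AMP element TGACGTCA (2.02%, 5.86% and 3.32%), the CCAAT sequence CCAATCAG (6.06%, 8.23% and 6.98%), the GATA sequence AGATAAG (4.04%, 4.50% and 8.60%) and both parts of the REST site, TTCAGCACC (5.05%, 1.70% and 1.53%) and GGACAGCG (9.09%, 8.78% and 5.18%). Among the 78 unique windows TTCAGCACC was in 1 (1.28%). A match is a string of letters and not a bound site.

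**Figure D5:**
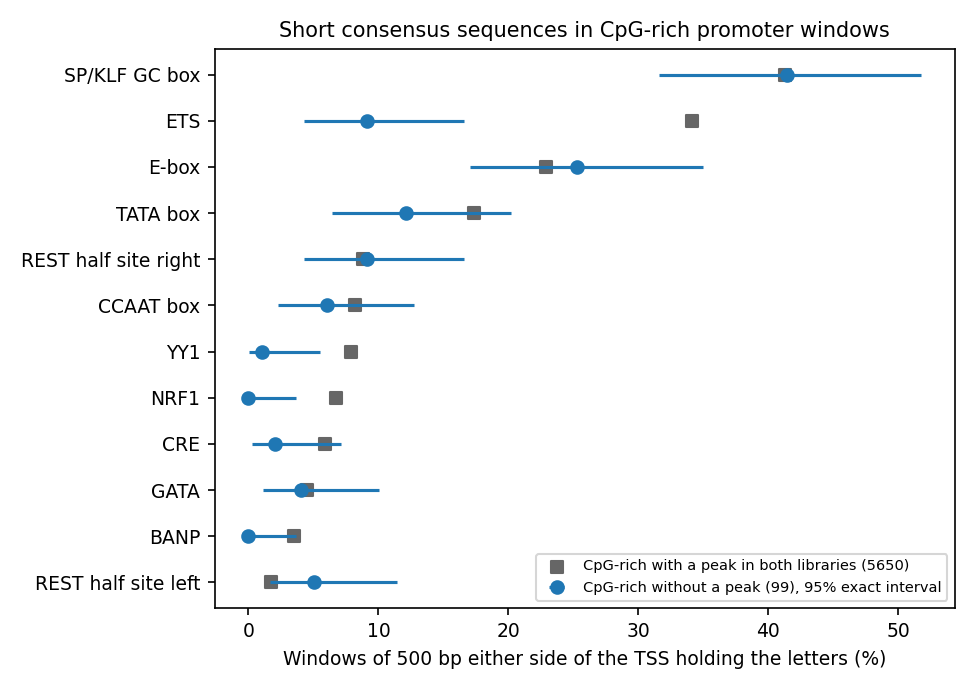
Share of 1001-base windows that hold each sequence (x axis, percent) for 12 sequences (y axis). Circles with exact 95% intervals are the 99 CpG-rich genes without a peak, and squares are the 5650 CpG-rich genes with a peak in both libraries; the ETS square at 34.2% lies to the right of its circle at 9.09%, and the GC box symbols coincide.

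A low share of the ETS sequence was also found in promoters with weak peaks. It was 9.69% (28 of 289) in CpG-rich promoters with a peak in 1 library. The NRF1 sequence was in 1.38% (4 of 289) of the same promoters and the YY1 sequence in 2.08% (6 of 289). Low shares of these 3 sequences were thus not particular to the 99. Among homeobox genes the ETS sequence was in 0 of the 19 without a peak, in 3 of 24 with a peak in 1 library and in 1 of 25 with a peak in both. Among the 59 other genes with unique windows and no peak it was in 6 (10.2%, interval 3.82% to 20.8%). The 99 windows are not fully independent of each other, since copies share their sequence and the windows of each histone pair overlap.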

How the data were processed

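DNase-seq peaks, false discovery rates and footprints of 2 libraries were used as deposited, on mm10. Per the file headers (a README per library), every list was made from 1 library's filtered reads, with no pooling. The peak signal, as deposited by the authors, is a depth-scaled density with an unstated constant. The sources used here name no aligner and no caller. The p-value column of the deposited stretches holds false discovery rates below 0.05. The value column of the footprints is the constant 0.01, and only their positions were used.

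TSSs came from GENCODE release M21 and bases from RefSeq GRCm38.p6, a C57BL/6J sequence. CpG ratios, uniqueness, motif matches and printed sequences thus hold for that reference, and the CAST/EiJ allele of these hybrid mice was not analysed here. A peak counted with an overlap of 1 bp or more. The CpG ratio is CpG count times length over C count times G count, within 500 bp of the most upstream TSS. Words of 31 bases were counted on both strands of the chromosomes and the unlocalized and unplaced scaffolds. Families, gene lists, consensus sequences and role groups were written by hand. The genes of the set and these lists were chosen with earlier results of these data known, and the role groups after the genes were listed. Genes were named by rule: the 5 with the highest CpG ratio, those at the edges of both limits, the 5 farthest from a peak, the longest runs, the first of the larger families, blood genes, the 5 with the lowest false discovery rate, and the chromosomes with extreme shares. Other genes were named for their family, role or copies after their values were seen, and not every gene the rule picks is printed. Scripts used Python 3.11.15, numpy 2.4.6, pandas 2.3.3 and scipy 1.17.1, and the overlap step was tested on simulated data. Intervals are exact binomial (Clopper-Pearson) at 95% and cover counting error only. With 1 group there was no contrast and no test. Alternatives were other peak lists, windows, CpG limits, TSS sets, chromosomes and uniqueness, and each library alone. A minimum GC content was added after seeing the data.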

Additional observations from a re-analysis of the deposited data

How the results depend on the processing

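The set depended on how weak a peak may be and on the CpG limit. The number of CpG-rich genes without a peak, 99 (1.64%), became 293 (4.85%) with the shorter peak lists, 459 (7.60%) with peaks at or above the median signal of their list, 208 (2.33%) at a ratio of at least 0.65 and 39 (1.29%) at 0.85. With 250 bp in place of 500 bp it was 142 (2.35%). Leaving out a library, the number ran from 108 (1.79%) without replicate 2 to 379 (6.28%) without replicate 1. The 15 homeobox genes outside the Hox clusters became 28 with the shorter lists, 33 with the stronger peaks, 26 and 7 at the other ratios, and from 15 to 34 without a library. These sets are larger or smaller by construction. With a 1000 bp window, peak midpoints, protein-coding transcripts only, the highest ratio over all TSSs, autosomes only or unique windows, the number stayed between 78 and 129 genes and the homeobox count between 14 and 20. The predicted genes named Gm fell from 7 to 2 among unique windows, and the share next to another gene of the set, 10.1%, became 3.85% among unique windows and 20.7% at a ratio of at least 0.65. The median distance of 6543 bp to the nearest peak of either library ran from 2471 bp to 24890 bp. A GC content of at least 55%, added after seeing the data, left 92 genes. No paired analysis was possible because the series has 1 group. Depth is unknown, so genes with weak peaks cannot be told apart from genes without any.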
